A study of Mus musculus with 12 samples.

Results

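The neurexins, neuroligins and leucine-rich repeat transmembrane (LRRTM) proteins hold the synapse together across its cleft. In all, 7 genes of these families, chosen by name, were followed here: the neurexin genes Nrxn2 and Nrxn3, the neuroligin genes Nlgn1, Nlgn2 and Nlgn3, and the LRRTM genes Lrrtm1 and Lrrtm2. They are 7 of the 18820 genes that the array measured by a probe set of their own, a probe set being the group of probes whose signals are combined into 1 value. Each gene stands by its brightest such probe set, and Nrxn2 and Nlgn1 each had a second, dimmer one, which makes 9 probe sets in all.

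The samples were medial prefrontal cortex of adult C57BL/6N offspring aged 12 weeks, with 1 array per animal. The poly(I:C) group was 6 offspring of mothers given an intravenous injection of poly(I:C), an artificial double-stranded RNA used to mimic a virus, at 5 mg/kg on gestation day 17. The control group was 6 offspring of mothers given saline in the same way. All animals had been through behavioural testing in adulthood before the tissue was taken, no genetic change is given in the labels, and the comparison asks whether exposure before birth altered expression in the grown animal. Litter and sex are not among the labels used here, so animals may share a mother, and p-values reflect only how much these 12 animals vary.

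Neurexins sit on the presynaptic membrane and bind several postsynaptic partners, of which neuroligins and LRRTM proteins are the best known. Neuroligin 1 is found mainly at excitatory synapses and neuroligin 2 at inhibitory ones, while neuroligin 3 occurs at both. LRRTM1 and LRRTM2 are partners of neurexins at excitatory synapses, where LRRTM2 helps to hold AMPA receptors in place. Each neurexin gene makes long and short forms from separate promoters, and heavy alternative splicing of neurexins sets which partner they bind. A gene-level probe set sums over such forms, so form and splice choice were not measured.

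None of the 7 genes differed between poly(I:C) and control offspring past the threshold used here, an adjusted p under 0.05 in limma with Benjamini-Hochberg adjustment over all 23099 probe sets with an annotated gene. Of all probe sets tested 2.83% passed, so a count of 0 of 7 is near that background. At an unadjusted p under 0.05 in limma, 1 of the 7 passed, Nlgn1, against 19.1% of all probe sets. The 95% interval of the difference lay within 1.2-fold in either direction for 7 of 7 genes, as it did for 95.2% of all probe sets. Across the 7, the intervals ran from 0.914-fold to 1.13-fold, poly(I:C) over control. The median log2 difference was -0.0025 for the 7 genes and 0.0030 for all probe sets tested; 3 of the 7 means were higher after poly(I:C) and 4 lower. After quantile normalization the median of the 7 was -0.021, with the same split of signs.

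The tissue and the arrays were checked against marker genes. The 7 genes had mean log2 levels from 7.81 to 9.92, above the median of every array (5.15 to 5.21). All 9 measured neuronal markers and all 7 measured markers of cortical glutamatergic neurons also had means above the array medians, none of them passed, and the neuronal list had mean levels of 10.29 to 10.36 in poly(I:C) animals and 10.24 to 10.30 in controls. Of 10 markers of myelin and oligodendrocytes, 5 were lower past the threshold (Mobp, Cnp, Cldn11, Mal and Myrf) and none higher, against 0.805% of all probe sets lower. The list means were 7.09 to 7.62 in poly(I:C) animals and 7.52 to 7.92 in controls. Each of the 10 differences was below 0 and had an unadjusted p under 0.05 in limma, against 19.1% of all probe sets, with a list median of -0.34. Of 8 striatal markers 1 was lower past the threshold, Ppp1r1b (-0.27 ± 0.061, limma adjusted p = 0.028), against 0.805% of all probe sets. All 8 differences were below 0, with a list median of -0.27. Of the 8, 6 had an unadjusted p under 0.05 in limma, against 19.1% of all probe sets. The list means were 6.15 to 6.38 in poly(I:C) animals and 6.19 to 6.96 in controls, and controls 5 and 6 were the highest. Of 5 markers of oligodendrocyte precursors 1 was higher, Pcdh15 (0.22 ± 0.045, limma adjusted p = 0.022), against 2.02% of all probe sets higher. The other 4 differences were below 0, and the list median was -0.048. None of 8 interneuron markers passed, and 6 of their 8 differences were below 0, 3 of the 8 having an unadjusted p under 0.05 in limma. No marker of the 10 for astrocytes, 9 for microglia or 8 for endothelium passed, adjusted or not. The part of these tissue differences in the values of the adhesion genes was not tested. In bulk tissue, fewer cells of a type and less RNA per cell cannot be told apart.

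**Figure D1:**
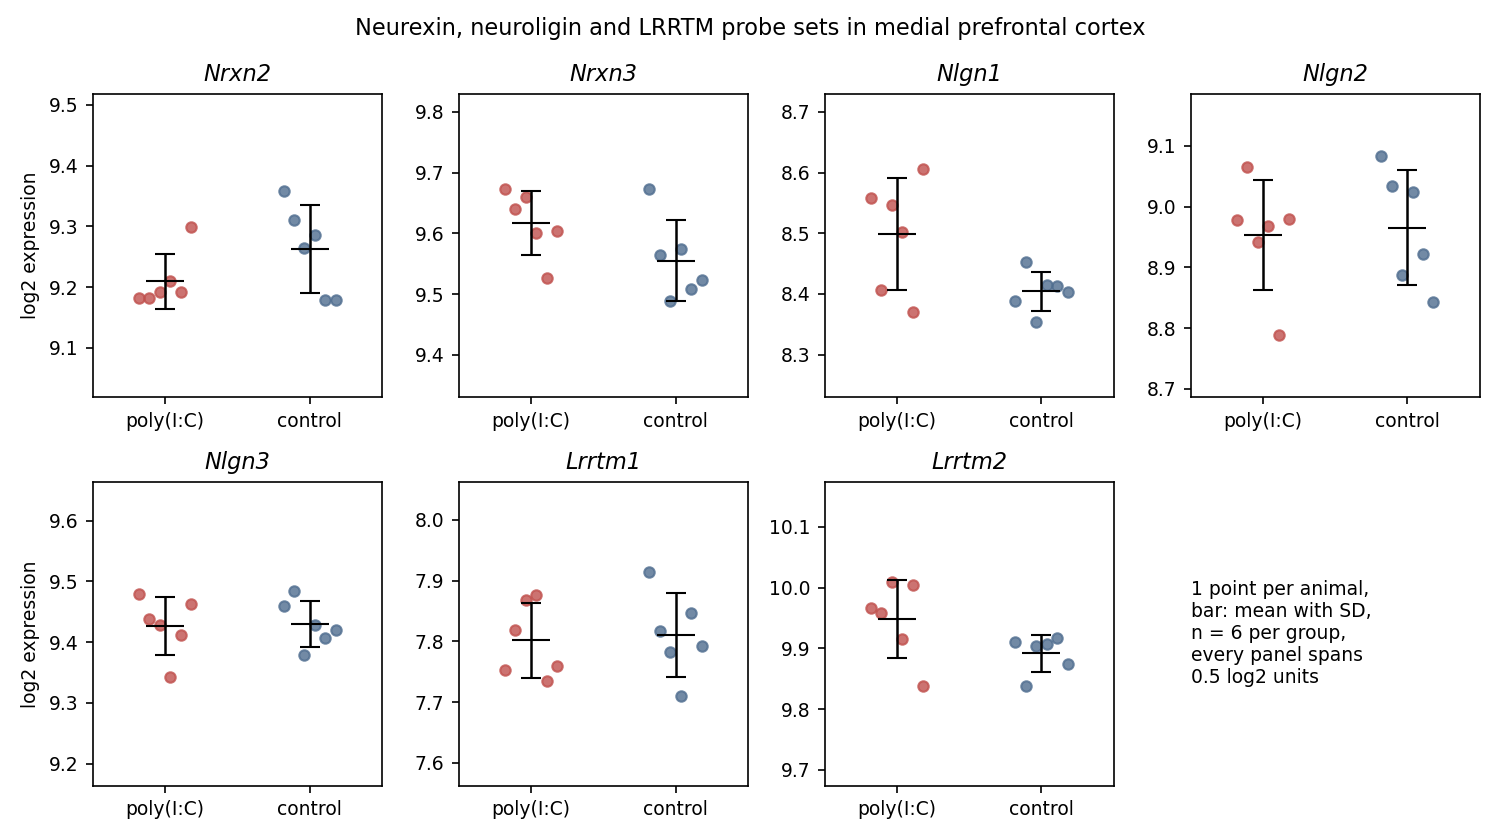
Log2 expression of the 7 adhesion genes by their brightest probe set, with poly(I:C) offspring on the left and control offspring on the right of each panel, 1 point per animal and the mean with its SD (n = 6 per group); every panel spans 0.5 log2 units. The groups overlap in all 7 panels, and in the Nlgn1 panel 4 poly(I:C) animals lie above every control.

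Nrxn2, one of the presynaptic neurexins, had values in poly(I:C) animals with a lowest of 9.18, a median of 9.19 and a highest of 9.30, and in controls with a lowest of 9.18, a median of 9.27 and a highest of 9.36 (log2 expression, probe set 10460987). The other 5 poly(I:C) animals sat close together at the bottom of the control range, below animal 6. The log2 difference was -0.053 ± 0.036 (moderated standard error, SE; n = 6 each), with a 95% interval from -0.13 to 0.024 and an adjusted p of 0.45 in limma. The dimmer Nrxn2 probe set, 10465424, ran from 6.24 through a median of 6.33 to 6.49 in poly(I:C) animals and from 6.36 through 6.38 to 6.52 in controls. Its difference was -0.069 ± 0.043 (limma adjusted p = 0.40), so both probe sets of the gene pointed the same way and neither passed. In both of them, 5 of 6 poly(I:C) animals lay below the control mean and animal 6 was the highest of its group. The difference of the brighter one was -0.034 without control 1 and -0.095 without controls 5 and 6 (limma adjusted p = 0.67 and 0.16), the controls highest in striatal markers.

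Nrxn3, also a presynaptic neurexin, leaned the other way. Its values had a lowest of 9.53, a median of 9.62 and a highest of 9.67 in poly(I:C) animals, and a lowest of 9.49, a median of 9.54 and a highest of 9.67 in controls (log2, probe set 10397575). The groups overlapped through control 1, which reached the top of the poly(I:C) range, and poly(I:C) animal 5, which lay among the controls. The remaining poly(I:C) animals were above all controls apart from control 1, and 5 of 6 poly(I:C) animals were above the control mean. The difference was 0.062 ± 0.036 (SE), with a 95% interval from -0.015 to 0.14 and an adjusted p of 0.37 in limma. When single animals were left out it ranged from 0.049 without control 3 to 0.086 without control 1 (limma adjusted p from 0.21 to 0.54).

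Nlgn1, the neuroligin of excitatory synapses, had the largest difference of the 7 genes in the deposited values of all animals. After quantile normalization its difference was 0.066 (limma adjusted p = 0.37), and that of Nrxn2 was larger in size, -0.072 (adjusted p = 0.31). Without poly(I:C) animal 6, Lrrtm2 (0.079) exceeded Nlgn1 (0.073). Promoter windows of Nlgn1 are printed here because of its rank in the deposited values. The Nlgn2 window is printed because Nlgn2 is the counterpart of Nlgn1 at inhibitory synapses. RefSeq gives Nlgn1 more than 1 start, and where its probe sets lie relative to them was not examined. The sequences come from RefSeq (build GRCm38.p6) and run from 250 bases before to 50 bases after an annotated start, on the minus strand for all 3. Capitals mark matches on either strand to the GC box GGGCGG, the TATA motif TATAAA or the CRE half-site TGACG, none of which overlapped.

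Nlgn1 start 1, chr3:26331860-26332159: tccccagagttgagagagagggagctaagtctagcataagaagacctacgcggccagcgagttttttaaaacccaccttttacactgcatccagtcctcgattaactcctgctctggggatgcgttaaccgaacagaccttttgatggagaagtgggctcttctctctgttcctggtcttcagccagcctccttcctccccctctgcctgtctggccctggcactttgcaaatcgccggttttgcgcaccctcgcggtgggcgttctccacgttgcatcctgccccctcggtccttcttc
Nlgn1 start 2, chr3:26153937-26154236: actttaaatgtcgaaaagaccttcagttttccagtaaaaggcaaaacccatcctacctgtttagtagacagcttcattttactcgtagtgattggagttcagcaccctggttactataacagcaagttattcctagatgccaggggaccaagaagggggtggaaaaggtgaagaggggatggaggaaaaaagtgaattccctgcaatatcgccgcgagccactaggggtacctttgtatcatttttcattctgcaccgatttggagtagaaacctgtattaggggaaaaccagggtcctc
Nlgn2, chr11:69837735-69838034: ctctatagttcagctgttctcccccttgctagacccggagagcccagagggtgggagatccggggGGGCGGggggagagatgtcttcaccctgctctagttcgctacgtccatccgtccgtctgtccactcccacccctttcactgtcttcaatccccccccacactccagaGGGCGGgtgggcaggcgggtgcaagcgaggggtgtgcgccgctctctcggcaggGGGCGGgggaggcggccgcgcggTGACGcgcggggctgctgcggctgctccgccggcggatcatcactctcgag

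The windows differ in base composition. The Nlgn2 window had a GC content of 68.7%, with 26 CpG dinucleotides, 3 GC boxes and 1 CRE half-site. The Nlgn1 windows had 55.7% and 44.7% GC with 14 and 6 CpG dinucleotides, and neither held any of the 3 motifs. Over all 32851 windows of this length in the table, the median GC content was 52.7%, 35.7% held the GC box, 20.8% the CRE half-site and 13.6% the TATA motif. Windows were found for 4 of the 7 genes, and the 3 Nrxn3 windows, of starts spread along that long gene, ranged from 47.3% to 60.7% GC. These letters describe the starts; the arrays measured RNA and nothing at the promoters.

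In poly(I:C) animals, Nlgn1 had a lowest value of 8.37, a median of 8.53 and a highest of 8.61, and in controls a lowest of 8.35, a median of 8.41 and a highest of 8.45 (log2, probe set 10497505). Poly(I:C) animals 1, 3, 4 and 6 were above every control, while animals 2 and 5 lay within the control range. The poly(I:C) group was also the more spread out, with an SD of 0.092 against 0.033 in controls. The difference was 0.094 ± 0.040 (SE), or 1.07-fold, with a 95% interval from 0.011 to 0.18. Its unadjusted p in limma was 0.029 and its adjusted p 0.20. The difference ranged from 0.073 to 0.12 when single animals were left out, being smallest without poly(I:C) animal 6, and no such fit passed (adjusted p from 0.089 to 0.34).

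The dimmer Nlgn1 probe set, 10491066, had values from 5.54 through a median of 5.72 to 5.86 in poly(I:C) animals and from 5.45 through 5.62 to 5.69 in controls. Its difference of 0.11 ± 0.054 (limma adjusted p = 0.27) had the same sign, with 5 of 6 poly(I:C) animals above the control mean in either probe set. The animals did not line up closely between the probe sets: animal 4 was the lowest of its group on the dimmer one and above every control on the brighter one. Within groups the probe sets of Nlgn1 correlated at r = 0.32 over the 12 animals, and those of Nrxn2 at r = 0.38.

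Nlgn2, the neuroligin of inhibitory synapses, had a difference close to 0. Its lowest, median and highest values were 8.79, 8.97 and 9.07 in poly(I:C) animals and 8.84, 8.97 and 9.08 in controls (log2, probe set 10387659). The group ranges lay nearly on top of each other, and poly(I:C) animal 5 was the lowest of all 12. The difference was -0.012 ± 0.048 (SE), with a 95% interval from -0.11 to 0.090 and a limma adjusted p of 0.92. Animals within a group differed more in Nlgn2 than in most of the 7 genes, with an SD of 0.091 in poly(I:C) animals and 0.095 in controls.

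Nlgn3, an X-linked neuroligin found at both kinds of synapse, had the smallest difference of the 7 genes. The poly(I:C) values had a lowest of 9.34, a median of 9.43 and a highest of 9.48, and the control values a lowest of 9.38, a median of 9.42 and a highest of 9.48 (log2, probe set 10601152). The difference was -0.0025 ± 0.031 (SE), the 95% interval ran from -0.068 to 0.063, and the adjusted p was 0.98 in limma. As a fold, poly(I:C) over control, that interval runs from 0.954 to 1.04. The RNA of Xist, which marks an inactivated X chromosome, read 3.13 to 3.22 in all 12 animals. That is below the 25th percentile of every array (3.92 to 3.96), so no animal had a high Xist level. Whether this probe set can read a high level was not tested, and the sex of the animals was not assigned from it.

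**Figure D2:**
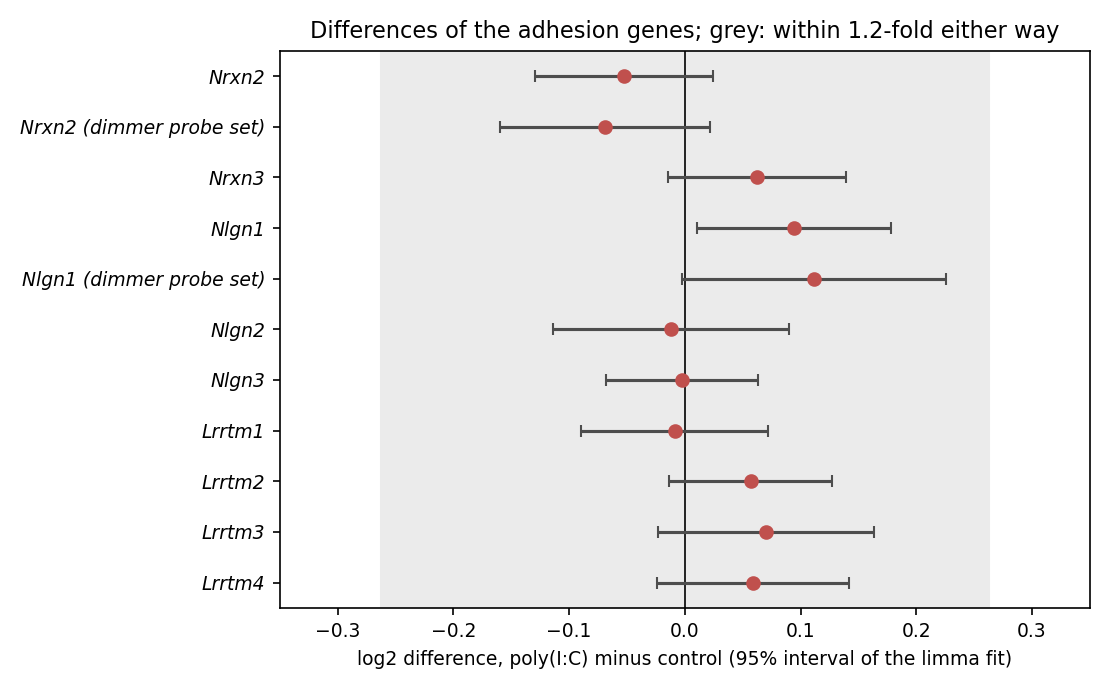
Log2 difference, poly(I:C) minus control, with the 95% interval from the limma fit, for each probe set of the 7 adhesion genes and for Lrrtm3 and Lrrtm4; grey marks changes within 1.2-fold. Every interval lies inside the grey band, and that of the brighter Nlgn1 probe set (0.011 to 0.18) leaves out 0 before adjustment.

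Lrrtm1 had values with a lowest of 7.73, a median of 7.79 and a highest of 7.88 in poly(I:C) animals and a lowest of 7.71, a median of 7.80 and a highest of 7.91 in controls (log2, probe set 10539169). The poly(I:C) values lay within the control range, with 3 poly(I:C) animals above and 3 below the control mean. The difference was -0.0089 ± 0.038 (SE), with a 95% interval from -0.090 to 0.072 and a limma adjusted p of 0.93.

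Lrrtm2 had a lowest of 9.84, a median of 9.96 and a highest of 10.01 in poly(I:C) animals, against a lowest of 9.84, a median of 9.91 and a highest of 9.92 in controls (log2, probe set 10458247). Here 4 poly(I:C) animals were above every control, animal 4 lay just under the highest control, and animal 6 was the lowest of all 12. The difference was 0.057 ± 0.033 (SE), with a 95% interval from -0.013 to 0.13 and a limma adjusted p of 0.37. The remaining LRRTM genes gave like values and did not pass: Lrrtm3 differed by 0.070 ± 0.044 (adjusted p = 0.41) and Lrrtm4 by 0.059 ± 0.039 (adjusted p = 0.43).

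In the RefSeq gene table Lrrtm1 lies inside Ctnna2, Lrrtm2 inside Ctnna1 and Lrrtm3 inside Ctnna3, genes of alpha-catenins, which link cadherins to actin. Lrrtm1 and Lrrtm3 are read from the strand opposite to their hosts. Ctnna2 differed by 0.071 ± 0.029 (limma adjusted p = 0.19), Ctnna1 by -0.071 ± 0.037 (adjusted p = 0.31) and Ctnna3 by -0.083 ± 0.040 (adjusted p = 0.27), none of them past the threshold. Ctnna1 was below the control mean in 6 of 6 poly(I:C) animals while Lrrtm2 within it was above in 5 of 6. Within groups, each host and its nested gene correlated at r = -0.18 for Lrrtm1, -0.38 for Lrrtm2 and -0.12 for Lrrtm3 over 12 animals. Even 2 probe sets of 1 gene correlated at only 0.32 (Nlgn1) and 0.38 (Nrxn2) in these animals. The values for Lrrtm1 and Lrrtm2 therefore cannot show whether these genes vary with their hosts. Ctnna3 averaged 4.68 in poly(I:C) animals and 4.76 in controls, below the median of every array. Its correlation with Lrrtm3 therefore cannot show whether they vary together.

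Ratios between genes of a family cancel what the genes of 1 animal share, such as array brightness. They were formed on the log2 scale, set to 0 at the control mean, and described without a test, since the pairs were formed with the values of the single genes known. The ratio of Nrxn3 over Nrxn2 had a lowest of 0.012, a median of 0.13 and a highest of 0.20 in poly(I:C) animals and a lowest of -0.068, a median of 0.0090 and a highest of 0.051 in controls. All 6 poly(I:C) animals were above the control mean, and 4 of them above every control, with a mean shift of 0.11. The ratio of Nlgn1 over Nlgn2 was shifted by 0.11 on average, with poly(I:C) values from -0.098 through a median of 0.14 to 0.19 and control values from -0.13 through 0.0034 to 0.12. There 4 poly(I:C) animals exceeded every control, and animal 2 lay near the lowest control.

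Nlgn1 over Nlgn3 was shifted by 0.097, with an SD of 0.088 in poly(I:C) animals and 0.026 in controls, and again 4 poly(I:C) animals exceeded every control. For Nlgn2 over Nlgn3 the shift was -0.0093, with poly(I:C) values from -0.16 to 0.091 and control values from -0.11 to 0.088, and for Lrrtm2 over Lrrtm1 it was 0.066 with 2 poly(I:C) animals above every control. In all 5 ratios the groups overlapped.

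**Figure D3:**
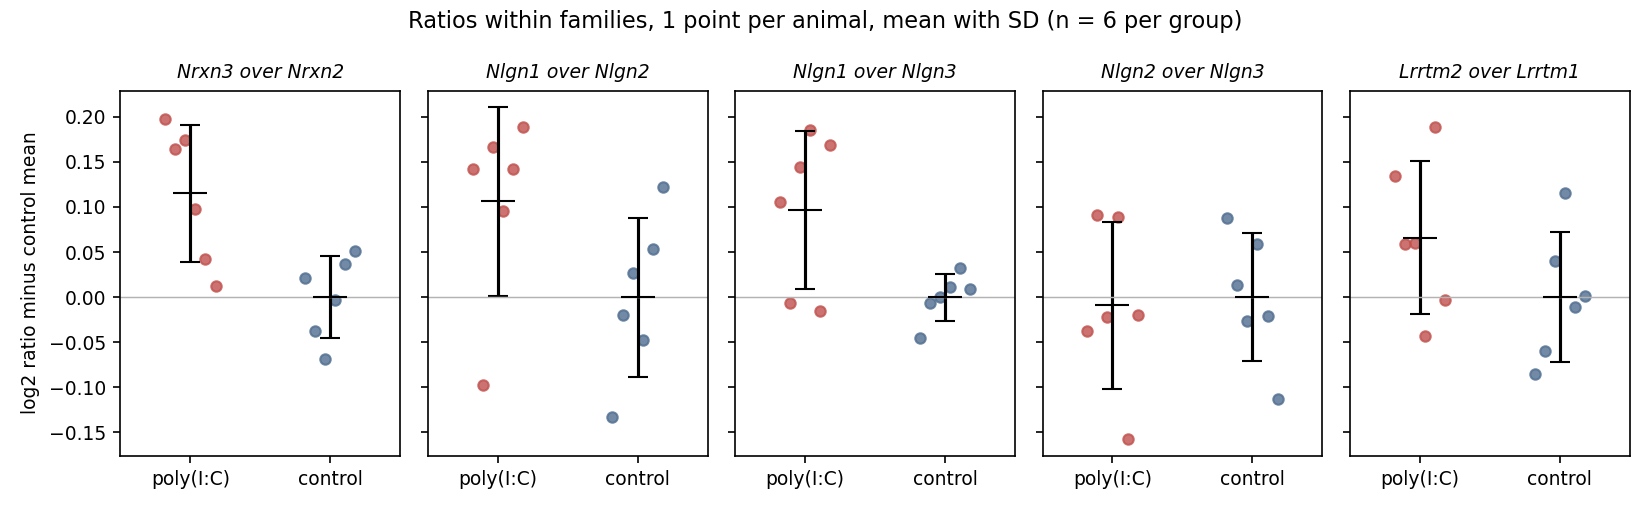
Log2 ratio of 2 genes of 1 family in each animal, set to 0 at the control mean, with poly(I:C) on the left, control on the right, and the mean with its SD (n = 6 per group). For Nrxn3 over Nrxn2 all 6 poly(I:C) animals lie above 0, and for Nlgn2 over Nlgn3 the poly(I:C) animals run from -0.16 to 0.091 and the controls from -0.11 to 0.088.

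The 7 genes also varied between animals of 1 group, and this variation was compared by correlating deviations from the group means over the 12 animals. These values are descriptions: the genes share arrays, brightness and tissue dissection. Of 21 pairs, 16 had r above 0 and 3 had r above 0.5, the highest being Nrxn3 with Nlgn2 (r = 0.80), followed by Nrxn2 with Nlgn2 (0.56) and Nrxn3 with Nlgn3 (0.55). Lrrtm2 ran against Nlgn1 (r = -0.55) and against Nrxn2 (-0.46). Poly(I:C) animal 5 gave the lowest poly(I:C) value in 4 of the 7 genes, and control 1 the highest control value in 4 of 7.

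**Figure D4:**
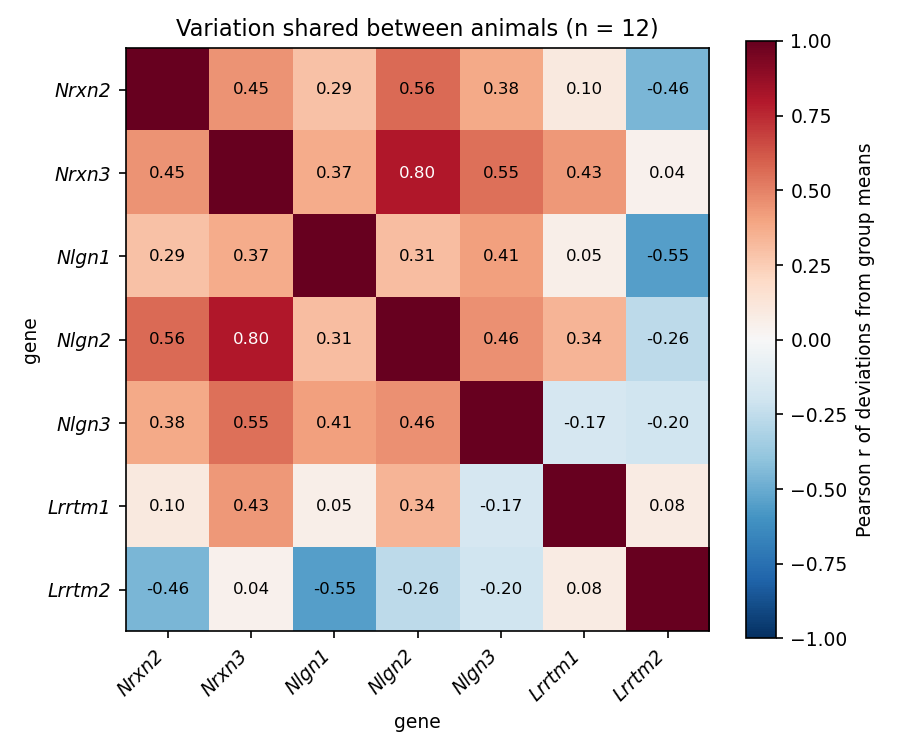
Pearson correlation between the 7 adhesion genes over 12 animals, computed on deviations from the group means and written in each cell. Nrxn3 and Nlgn2 have the highest value, 0.80, and Lrrtm2 has values at or below 0.08 with all 6 other genes.

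Among brighter single-gene probe sets, the genes whose within-group pattern was most like each member were found by the same correlation over 12 animals. For Nrxn2 they were Shisa4 (r = 0.94) and Pde4a, a cyclic AMP phosphodiesterase (0.92), and for Nrxn3 Pcnx2 (0.95) and Rapgefl1 (0.94). For Nlgn1 they were Kmt2c, a histone methyltransferase (0.88), and Rock1, a kinase that acts on the actin cytoskeleton (0.87). For Nlgn2 they were Arnt2, a transcription factor of neurons (0.94), and Ajap1 (0.94), and for Nlgn3 Lgi3 (0.92) and Endov (0.92). For Lrrtm1 they were Ampd2, an AMP deaminase (0.95), and Rbsn (0.93), and for Lrrtm2 Mapk10, a neuronal JNK kinase (0.94), and Nceh1 (0.90). None of these 14 genes differed between poly(I:C) and control past the adjusted threshold in limma, a count near the background of 2.83% of all probe sets. The closest was Ampd2 (0.10, limma adjusted p = 0.097). The r values of these 14 genes were the highest found in a search over many probe sets, and such picking alone raises r. The r that unrelated probe sets would reach in this search was not tested. The values therefore cannot show that a listed gene varies with its member beyond what the search would give.

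Genes related to the 7 were read from 7 lists, of which 67 of 74 genes had a single-gene probe set. Not all of them act with the 7. One list holds a second adhesion hub, LAR-type receptor phosphatases and their partners, and another the alpha-catenin genes that host Lrrtm genes. Of the 67, 2 were higher in poly(I:C) animals, none lower and 65 did not pass, or 2.99% against 2.83% of all probe sets (for higher 2.02%, for lower 0.805%). With an unadjusted p under 0.05 in limma 23 passed, or 34.3% against 19.1%, and the median log2 difference was 0.034 against 0.0030. Of these 23 genes, 11 came from the list of the second hub, which had 23 measured genes. The brighter probe sets of the array ran slightly upward as a whole: over those at or above the median brightness, the median difference was 0.026.

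**Figure D5:**
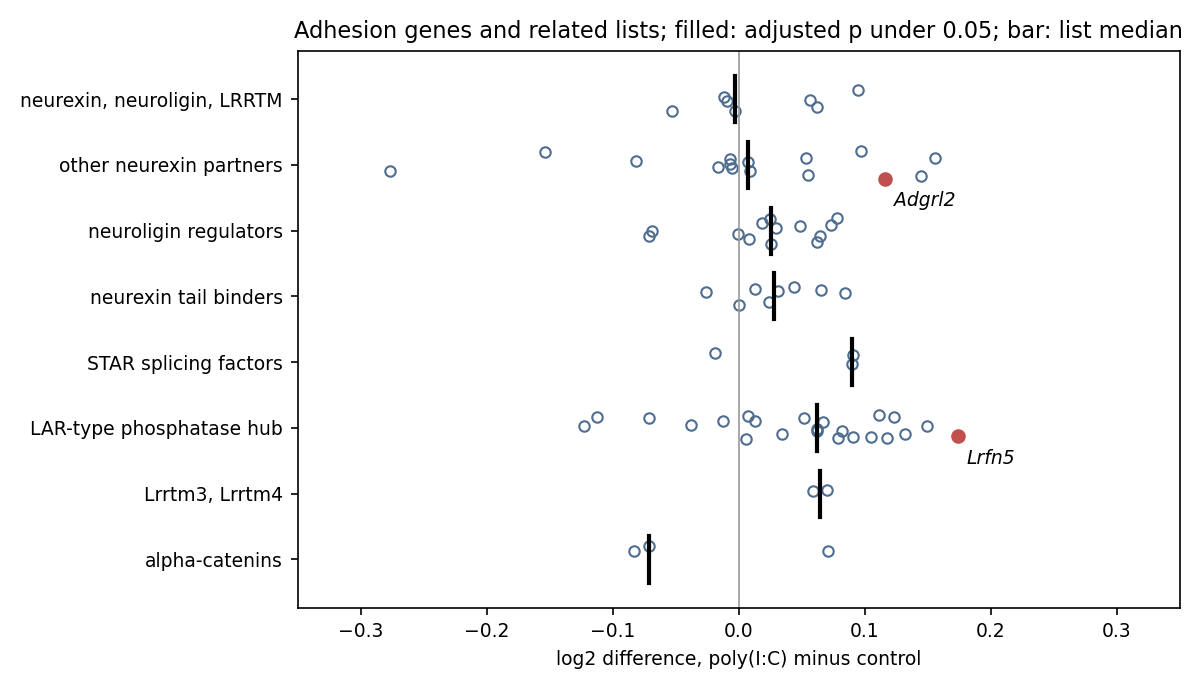
Log2 difference, poly(I:C) minus control, of the 7 adhesion genes and of 67 related genes by list, 1 point per gene by its brightest probe set; filled points passed an adjusted p under 0.05 in limma, and the black bar is the list median. Only Adgrl2 and Lrfn5 are filled, and the list median of the 7 adhesion genes is -0.0025.

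One of the 2 genes was Adgrl2, which encodes the adhesion receptor latrophilin 2. It stood in the list of neurexin partners because latrophilin 1 has been described as one; latrophilin 2 itself is best known for binding teneurins and FLRT proteins. Its values had a lowest of 9.69, a median of 9.77 and a highest of 9.81 in poly(I:C) animals and a lowest of 9.62, a median of 9.64 and a highest of 9.71 in controls (log2, probe set 10502776). All poly(I:C) animals but animal 5 were above every control, and animal 5 fell within the control range. The difference was 0.12 ± 0.030 (SE), or 1.08-fold (limma adjusted p = 0.047). Adgrl2 had 8 single-gene probe sets, all 8 of them higher in poly(I:C) animals, by 0.068 to 0.19, and 5 passed, against 2.83% of all probe sets. These probe sets read 1 gene in the same animals, so they are not independent of each other.

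The related latrophilin genes gave other values: Adgrl3, named after its values were seen, differed by 0.097 ± 0.031 with no overlap between groups but did not pass (adjusted p = 0.10), and Adgrl1 differed by 0.0088 ± 0.031. Non-overlapping groups occurred in 2.37% of all probe sets. Nxph3, a secreted neurexin ligand of the neurexophilin family, had the largest difference in the lists, -0.28 ± 0.087, and did not pass (adjusted p = 0.092). The Adgrl2 call on its brightest probe set was kept in 6 of 22 other settings (adjusted p from 0.019 to 0.12), and among fits without 1 animal only in those without poly(I:C) animal 5 or control 4.

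The other was Lrfn5, a postsynaptic adhesion protein that binds LAR-type receptor phosphatases, the hub that works beside neurexins on the presynaptic side. Its values had a lowest of 8.07, a median of 8.23 and a highest of 8.30 in poly(I:C) animals and a lowest of 7.98, a median of 8.02 and a highest of 8.18 in controls (log2, probe set 10395961). Only control 4 reached into the poly(I:C) range. The difference was 0.17 ± 0.043 (SE), or 1.13-fold (limma adjusted p = 0.039). This call was kept in 7 of 22 other settings (adjusted p from 0.017 to 0.12), among fits without 1 animal only without poly(I:C) animal 5 or control 4, and it was lost after quantile normalization (difference 0.14, adjusted p = 0.12).

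In the list of that hub, 22 of 23 genes did not pass, and its median difference was 0.063, or 0.032 after quantile normalization. Among regulators and anchors of neuroligins, 13 of 13 did not pass, with a median of 0.026 (10 differences above 0 and 3 below), or 0.00075 after quantile normalization (7 and 6); the lowest p-values belonged to Magi1, a scaffold (0.063 ± 0.028, adjusted p = 0.23), and Dlg2, the scaffold PSD-93 (0.074 ± 0.033, adjusted p = 0.24). Among proteins that bind the inner tail of neurexins, 8 of 8 did not pass, Cask, a membrane-associated kinase-like scaffold, being at 0.084 ± 0.032 (adjusted p = 0.16) and Lin7a, its partner, at 0.066 ± 0.039 (adjusted p = 0.38). Of the STAR splicing factors, which control alternative exons of neurexins, Khdrbs3 was at 0.091 ± 0.040 (adjusted p = 0.22) and Khdrbs2 at 0.090 ± 0.076 (adjusted p = 0.55), while the other, Khdrbs1, was at -0.019 ± 0.034 (adjusted p = 0.81). The Khdrbs2 difference was 0.034, 0.14 and 0.058 in fits without control 1, 2 or 3, and that of Khdrbs3 was 0.059 after quantile normalization. The medians of the neurexin partners (0.0074) and of the tail binders (0.028) changed sign after quantile normalization, to -0.015 and -0.0014, and that of the partners also after median centring (-0.0030). In limma, Adgrl2 and Lrfn5 were the only genes of these 67 past the threshold.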

How the data were processed

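Total RNA of 12 samples was measured on Affymetrix Mouse Gene 1.1 ST strips, per the labels' protocols, which name both a 3' and a whole-transcript labelling kit. The authors deposited 1 log2 expression value per probe set and animal, a unit read from the scale of the values; RMA and Partek 6.6 stand in the submitters' processing notes without role or order. Quantile normalization of the RMA kind makes arrays alike and can shrink small differences. For the build and annotation used by the authors, nothing is stated in the sources used here.

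Of 35556 probe sets, 21218 carried 1 gene symbol of the platform annotation (21185 matched to RefSeq GRCm38.p6 names), 1881 several and 12457 none; the 23099 with a gene were tested. Groups were compared by limma 3.58.1 under R 4.3.3 (lmFit, eBayes), two-sided, without covariates, with Benjamini-Hochberg adjustment over all 23099. Errors of differences are moderated SEs. Correlations, ratios and promoter counts were computed in Python 3.11.15 and plots made by matplotlib 3.10.9. Known shifts in simulated data were used to test the fit. Precision is limited by the number of arrays.

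The members, lists and alternatives were chosen with earlier results of these data known. Named genes are the 7 members, every list gene past the threshold and otherwise the 2 with the lowest p per list. For each member they include the 2 most alike genes among probe sets at or above the median brightness. Nxph3, Adgrl1, Adgrl3, Ctnna1, Mdga2, Slitrk2, Lin7c, Khdrbs1, Ptprd, Il1rap, Flrt3 and the cell type markers were named after their values were seen. Alternatives were a replicate block, quantile normalization, array weights, centring on medians, brightness filters (25th or 50th percentile), all rows, other variance moderation, the mean over a gene's probe sets, and leaving out animals. The replicate numbers of the titles pair nothing stated in the labels.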

Additional observations from a re-analysis of the deposited data

Results flagged for a closer look

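Single animals far from the rest of their group, by Dixon's ratio of gap to range, were found in 4 of 42 groups of 6 checked, and chance flags about 1 in 20 groups. For the brighter Nrxn2 probe set, poly(I:C) animal 6 read 9.30, with the next of its group at 9.21 and the lowest at 9.18. For the dimmer one, control 2 read 6.52, with the next control at 6.41. For Adgrl2 (probe set 10502776), poly(I:C) animal 5 read 9.69, below the next of its group at 9.77. For Lrfn5, control 4 read 8.18, above the next control at 8.05. Fits without 1 animal put the Nrxn2 difference between -0.071 without poly(I:C) animal 6 (limma adjusted p = 0.33) and -0.034 without control 1 (adjusted p = 0.67).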

How the results depend on the processing

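No member passed in limma under any of the 23 alternatives, in 161 combinations of member and setting, with adjusted p from 0.089 upward. Of these, 151 kept the sign and 10 did not, each of them a fit without 1 animal: leaving out single animals moved the difference between -0.036 and 0.021 for Nlgn2, between -0.013 and 0.014 for Nlgn3 and between -0.029 and 0.012 for Lrrtm1. Quantile normalization gave 0.034 for Lrrtm2, -0.036 for Nlgn2, -0.021 for Nlgn3 and -0.037 for Lrrtm1, and lowered Magi1 to 0.031, Lin7a to 0.037, Lrrtm4 to 0.025 and Ctnna2 to 0.038, none past the threshold; without controls 5 and 6 Nlgn2 was at -0.054 and Lrrtm4 at 0.092. Of all probe sets, 653 passed (467 higher, 186 lower), against 414 with all rows tested and 122 without variance moderation; quantile normalization split the calls into 239 higher and 285 lower, and median centring into 298 and 232. Fits that left out 1 animal called 230 to 818 (818 without poly(I:C) animal 2); the 7 lowest counts came without control 1, 2 or 3 (331, 230, 281) or without poly(I:C) animal 1, 3, 4 or 6 (236, 396, 302, 392), each left out alone. Of the 67 related genes, the count higher was 2, but 0 after quantile normalization, median centring, with all rows, without variance moderation or without controls 5 and 6 together, 5 with only probe sets past the 50th percentile tested (Ptprd, Il1rap and Flrt3 joining Adgrl2 and Lrfn5), and 0 to 4 without 1 animal, where the count lower was 0 to 1 (Nxph3 without poly(I:C) animal 5). The cause was not tested. With the replicate numbers as a block, 536 probe sets, 1 related gene (Lrfn5) and 0 members passed; same-numbered animals correlated at -0.092 to 0.11 and 1 of 12 correlated best with its own number, so the numbers do not pair the animals. Dim probe sets, near the array floor, limit what could be seen of the dimmest list genes.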

Other observations

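Among related genes with a further probe set, Khdrbs1 had opposite signs on its pair, and Mdga2 and Slitrk2 had the same sign. Lin7c, from the list of tail binders, had -3e-05 ± 0.041 on its brightest probe set and -0.060 ± 0.035 on the other (limma adjusted p = 0.37). That other probe set was dim, with means of 3.17 in poly(I:C) animals and 3.23 in controls. Khdrbs1, a STAR splicing factor, differed by -0.019 ± 0.034 on its brightest probe set and by 0.11 ± 0.039 on the other, with 2 and 6 of 6 poly(I:C) animals above the control mean, and neither passed (limma adjusted p = 0.81 and 0.13). Mdga2, which binds neuroligins and keeps them from neurexins, differed by 0.064 ± 0.029 and 0.091 ± 0.044 on its probe sets, with 6 of 6 poly(I:C) animals above the control mean on each (adjusted p = 0.24 and 0.28). Slitrk2, a ligand of LAR-type phosphatases, differed by 0.063 ± 0.039 and 0.10 ± 0.041 (adjusted p = 0.40 and 0.19).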
